A study of Ovis aries with 3 samples.

Results

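The 7 genes described here are *NEFM*, *NEFL*, *INA*, *STMN2*, *GAP43*, *TAGLN3* and *SCG3*, a set of neurofilament and neuronal differentiation genes chosen by symbol among the 26478 genes listed for these sheep (*Ovis aries*) embryos. All 7 symbols were listed once, as ENSOARG00020017740 for *NEFM* and by like identifiers for the rest. Whole embryos were digested with collagenase, red blood cells were lysed, and single cells were profiled with the 10x Genomics 3′ kit, version 3.1, in the 3 libraries analysed here. E16 HS and E19 HS are Hu sheep at embryonic days 16 and 19, and E19 HSTS is the Hulunbuir short-tailed sheep at day 19. The study genotyped animals of each breed as homozygous for a short-tail mutation of *T* in HSTS and homozygous wild type in HS, so breed and allele cannot be told apart here. The day 19 libraries each come from 1 embryo. The E16 HS label names 1 embryo while the study's text gives 3, and whether these were pooled could not be settled. E16 HSTS was not analysed here. There is 1 library per condition, so variation among embryos is unknown, no test was made, and every interval is an exact interval at the 95% level that covers counting error only.

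Neurofilaments are intermediate filaments that fill the axons of neurons. *NEFL*, the light subunit, forms the core of the polymer, *NEFM*, the medium subunit, adds a long side arm, and *INA*, alpha-internexin, is a related subunit that appears early in developing neurons. *STMN2* encodes a stathmin that binds tubulin and is found in growth cones, *GAP43* encodes a membrane protein of growth cones, *TAGLN3* encodes a neuronal relative of the actin-binding transgelins, and *SCG3* encodes a granin that helps to form secretory granules. In the neural tube these genes are known to come on as progenitors leave the cell cycle and become neurons.

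After the filter of 200 to 6000 genes, 1000 to 30000 unique molecular identifiers (UMIs) and at most 10% mitochondrial UMIs, E16 HS had 11329 cells, E19 HS 10629 and E19 HSTS 9618, with medians of 9046, 6900 and 8675 UMIs. Between 31 and 37 barcodes were shared by any pair of libraries. The cells were clustered without the 7 genes, and a cluster was called "like" a cell type from marker lists that also left them out. Neuron-like cells numbered 19 in E16 HS, 260 in E19 HS and 238 in E19 HSTS. Their leading genes included *SST*, *ONECUT1*, *CHRNA3* and *NEUROD4*, and of the 9 neuron markers measured none was among the 10 leading genes. *DCX*, a microtubule protein of migrating neurons, was found in 15.8%, 16.5% and 23.1% of them, against 0.0177%, 0.203% and 0.192% of all other cells. *CRMP1*, another of the markers, was in 10.5%, 11.5% and 11.8%, against 4.08%, 3.40% and 3.18%. *SNAP25* was in 0%, 6.54% and 7.14%, against 0.283%, 0.376% and 0.458%. In the 19 cells of E16 HS 2 of the 9 markers had 0 UMIs. In both day 19 libraries the 9 markers were each more frequent in neuron-like cells than elsewhere. Blood progenitor-like cells, which should lack the 7 genes, gave the level of free RNA and were deeper than the rest, with medians of 13946, 17569 and 17493 UMIs.

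All 3 filament genes were higher at day 19 than at day 16. *NEFM* stood at 9.63 UMIs per 1000000 UMIs (CPM) in E16 HS, 74.7 in E19 HS and 61.2 in E19 HSTS, from 1090, 6632 and 6091 UMIs. *NEFL* stood at 4.94, 15.5 and 13.2 CPM and *INA* at 1.48, 8.19 and 7.81 CPM in the same order. Both day 19 libraries lay well above the day 16 library for each of these genes and close to each other. The ratio of E19 HS to E16 HS was 7.76 (7.28 to 8.28) for *NEFM*, 3.15 (2.85 to 3.48) for *NEFL* and 5.52 (4.66 to 6.57) for *INA*. Since the 3′ ends of RNA were counted and capture differs between genes, levels were set side by side between libraries and cells, not between genes.

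The growth cone and secretory genes had the same order of libraries. *STMN2* was at 53.0 CPM in E16 HS, 121.7 in E19 HS and 112.3 in E19 HSTS, and *GAP43* was at 0.972, 4.90 and 3.80 CPM. *TAGLN3* was at 11.2, 37.0 and 35.0 CPM, and *SCG3* at 1.38, 15.6 and 12.9 CPM. The smallest of the 7 ratios of E19 HS to E16 HS was that of *STMN2*, 2.30 (2.22 to 2.37), and the greatest that of *SCG3*, 11.3 (9.58 to 13.4). *TAGLN3* had a ratio of 3.30 (3.09 to 3.52) and *GAP43* one of 5.05 (4.08 to 6.28). Thus 7 of 7 members were at least 2-fold higher at day 19 in HS, where 6.38% of the 12580 genes with at least 50 UMIs were that much higher and 6.96% that much lower (802 and 876 genes, or 1057 and 558 with TMM scaling, which raises every ratio 1.16-fold). The median ratio of all these genes was 0.854. Summed levels of a whole embryo cannot tell more cells of a type from more RNA per cell.

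**Figure D1:**
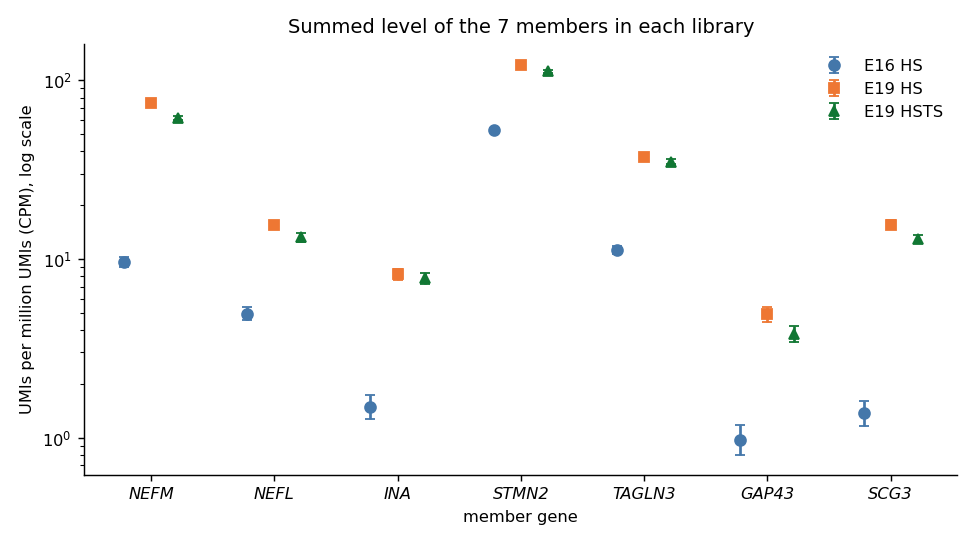
Summed level of each member in each library, in CPM on a log axis, with exact Poisson intervals at the 95% level that are often smaller than the symbol. For every member both day 19 libraries (orange squares, green triangles) lie above E16 HS (blue circles), by 2.30-fold for *STMN2* and 11.3-fold for *SCG3* in HS.

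Most of the difference between the days sat in the cells clustered as neuron-like. These were 0.168% of the kept cells in E16 HS (0.101 to 0.262%), 2.45% in E19 HS (2.16 to 2.76%) and 2.47% in E19 HSTS (2.17 to 2.80%). They held 675 of 9357 UMIs of the 7 genes in E16 HS, or 7.21%, but 15728 of 24636 in E19 HS, or 63.8%, and 16807 of 24524 in E19 HSTS, or 68.5%. Cells with 2 or more neuron markers, taken without clustering, held 12.6%, 39.3% and 55.8% of the *NEFM* UMIs. They held 2.90%, 19.5% and 31.9% of the *STMN2* UMIs, so the portion depends on which cells are taken. With the neuron-like cells left out, a setting chosen after the data were seen, the ratio of E19 HS to E16 HS was 1.10 for *NEFM* (0.993 to 1.21), 0.876 for *NEFL* (0.766 to 1.00) and 0.981 for *GAP43* (0.722 to 1.33). *STMN2*, *TAGLN3* and *INA* had ratios of 1.35, 1.36 and 1.44 in these remaining cells. *SCG3* alone stayed past 2-fold, at 3.69 (3.01 to 4.56).

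Inside the neuron-like cells the members were also denser at day 19. *NEFM* went from 1956 CPM in E16 HS to 4087 in E19 HS, a ratio of 2.09 (1.82 to 2.40), and *NEFL* from 108.7 to 699.1 CPM, a ratio of 6.43 (3.67 to 12.5). *INA*, *SCG3* and *GAP43* had ratios of 2.84, 2.61 and 3.91 there, and *STMN2* and *TAGLN3* ratios of 1.30 and 1.42. The day 16 values come from 19 cells, in which *NEFL* had 12 UMIs and *GAP43* had 7. They also depend on which cells are taken. In cells with 2 or more neuron markers, 28 in E16 HS and 84 in E19 HS, *NEFM* was at 385.5 and 3794 CPM, *STMN2* at 489.7 and 3067 and *TAGLN3* at 115.4 and 1167, a wider gap, and *STMN2* was in 8 of the 28 cells against 76 of the 84. *TAGLN3* was in 8 of the 28 cells, against 19 of the 19 neuron-like cells. *CRMP1* and *ISL1*, 2 of the markers, were in 4.08% and 2.12% of the cells of E16 HS that were not neuron-like. Many of the 28 cells thus need not be neurons. They had a median of 12621 UMIs and the 84 one of 6434.5, against 5024 and 5129.5 in the neuron-like cells. The part of depth or of such cells in that gap was not tested. In neural progenitor-like cells the direction differed between genes. *STMN2* was at 490.6 CPM in E16 HS and 243.4 in E19 HS, a ratio of 0.496 (0.474 to 0.520), and *INA* was at 15.3 and 8.18 CPM, a ratio of 0.534 (0.412 to 0.696). *SCG3* was at 6.27 and 12.3 CPM there, a ratio of 1.97 (1.41 to 2.82). In cells taken instead by a gate on *SOX2* and *PAX6*, *STMN2* was at 393.1 CPM in E16 HS and 244.8 in E19 HS. *INA* was at 10.0 and 10.6 CPM in that gate, so its lower summed level at day 19 was not seen there. In E19 HS 1 gated cell held 11 of the 92 UMIs of *INA*. Gated cells without a neuron marker UMI held *INA* in 8.33% of 360 in E16 HS and 5.13% of 857 in E19 HS. The medians of the gate were 9773 and 7937 UMIs.

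**Figure D2:**
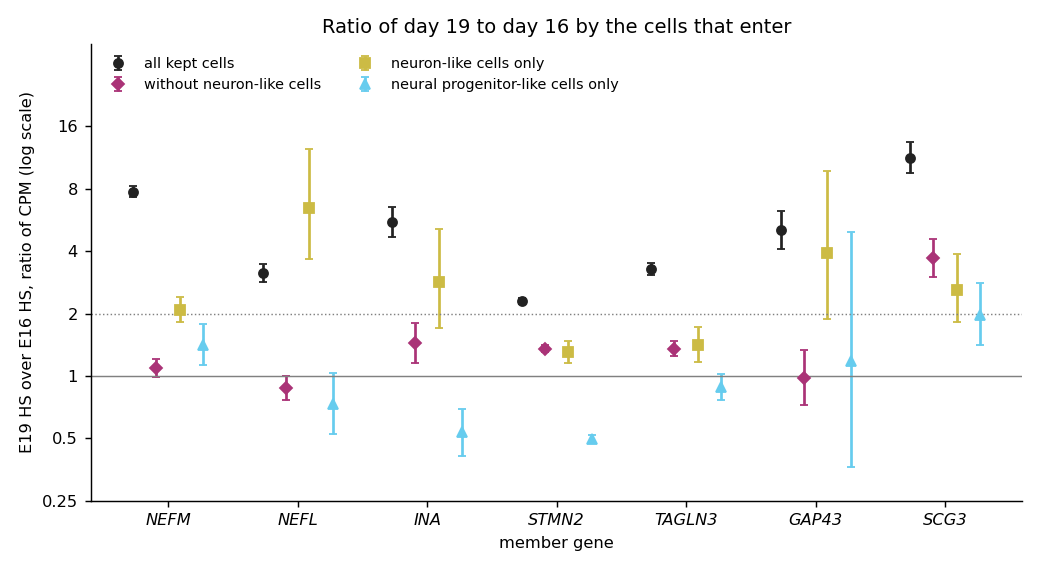
Ratio of CPM in E19 HS to E16 HS for each member on a log axis, with exact intervals, in all kept cells (black), without neuron-like cells (purple), in neuron-like cells only (yellow) and in neural progenitor-like cells only (light blue). The purple points lie below 2-fold, from 0.876 for *NEFL* to 1.44 for *INA*, except *SCG3* at 3.69, and the light blue points of *STMN2* and *INA* lie at 0.496 and 0.534. By a gate on *SOX2* and *PAX6*, which is not drawn, *INA* was at 10.0 CPM in E16 HS and 10.6 in E19 HS. Lines mark a ratio of 1 (solid) and 2-fold (dotted).

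Between the breeds at day 19 none of the 7 members was past 2-fold, where 1.53% of 12439 genes were at least 2-fold higher in E19 HSTS and 2.28% at least 2-fold lower. The ratios of E19 HSTS to E19 HS ran from 0.774 (0.673 to 0.891) for *GAP43* to 0.954 (0.861 to 1.06) for *INA*, and all 7 lay below 1, as did the median of all genes at 0.963. Blood progenitor-like cells, of which E19 HSTS had 2637 and E19 HS 1421, hold many UMIs that enter the total. Without them the ratios were 1.06 for *NEFM*, 1.10 for *NEFL*, 1.19 for *STMN2*, 1.23 for *INA*, 1.21 for *TAGLN3*, 1.05 for *SCG3* and 1.00 for *GAP43*, so none of the 7 ratios stayed below 1. Within the neuron-like cells *STMN2* was at 3953 CPM in E19 HSTS against 3343 for E19 HS, a ratio of 1.18 (1.14 to 1.23), while *NEFM* was at 3424 and 4087 CPM, a ratio of 0.838 (0.807 to 0.870). E16 HS and E19 HSTS differ in both day and breed and were only set side by side.

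For *NEFM* and *NEFL* the share of cells with a UMI did not follow the summed level, while for the other 5 members E16 HS was lowest and E19 HS highest in both. *NEFM* was found in 5.09% of cells in E16 HS, 5.33% in E19 HS and 4.77% in E19 HSTS, although its CPM differed 7.76-fold between the HS libraries. Drawing 3000 UMIs from each cell at random, which drops 1317, 1345 and 1106 cells of lower depth, gave shares of 1.94%, 3.40% and 2.89%. *NEFL* was in 4.05%, 4.08% and 4.21% of cells, or 1.27%, 2.31% and 2.47% after thinning. Both subunits were thus in similar shares of cells at both days where 1 UMI was enough, but not after thinning or with at least 2 UMIs, at 1.39%, 2.16% and 2.12% for *NEFM* and 0.618%, 1.30% and 1.58% for *NEFL*. *STMN2* was the most widely detected, in 13.7%, 21.4% and 18% of cells, against 2.69%, 2.74% and 2.69% of blood progenitor-like cells. *SCG3* went from 0.909% to 4.38% and 4.19% of cells, against 0.0998%, 0.493% and 0.645% of the blood progenitor-like cells. *INA* was in 1.20%, 2.60% and 2.33% of cells, *TAGLN3* in 8.19%, 10.5% and 9.68%, and *GAP43* in 0.697%, 1.57% and 1.33%. The order of the day 19 libraries turned when blood progenitor-like cells were left out for *TAGLN3* (then 11.9% for E19 HS and 12.7% for E19 HSTS), *INA* (2.96% and 3.14%) and *SCG3* (4.98% and 5.53%). It turned for *NEFM* too, with E19 HSTS then higher. After thinning, the 7 shares were higher in both day 19 libraries than in E16 HS.

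Few cells carried the set as a whole, and at day 19 most of these were neuron-like. At least 5 of the 7 members were found together in 8 cells of E16 HS, 163 of E19 HS and 140 of E19 HSTS, of which 5, 152 and 131 were neuron-like. All 7 were found in 2, 73 and 59 cells, of which 2, 72 and 57 were neuron-like. At least 3 members were found in 163 cells of E16 HS (1.44%), 423 of E19 HS (3.98%) and 341 of E19 HSTS (3.55%). At day 16 neural progenitor-like cells were 76 of these 163 cells and neuron-like cells only 13, while at day 19 neuron-like cells led with 227 and 207. After thinning, at least 3 members were left in 30, 231 and 196 cells.

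Detection in neuron-like cells had an order that both day 19 libraries shared. Among neuron-like cells of E19 HS, *STMN2* and *TAGLN3* were each in 92.7% (88.8 to 95.5%), *SCG3* in 82.3%, *NEFM* in 69.6%, *INA* in 53.5%, *NEFL* in 50.4% and *GAP43* in 42.3%. In E19 HSTS the shares were 93.7%, 98.3%, 80.7%, 64.3%, 56.3%, 42.9% and 38.2%. *STMN2* and *TAGLN3* do not differ beyond their intervals in E19 HS, nor do *INA* and *NEFL*. In E16 HS, *TAGLN3* was in 19 of 19 neuron-like cells, *STMN2* in 16, *SCG3* in 13 and *NEFM* in 7, with *NEFL*, *INA* and *GAP43* in 5, 4 and 3. A member with fewer UMIs is missed more often, so the order is one of detection, and it was not tested as an order in time.

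Neuron-like cells were also taken by how many members they held. A gene found in more cells tends to fill the low numbers first. The bins thus restate the shares above and are no second sign of the order. In the 12 and 10 cells with 1 member (E19 HS, E19 HSTS), it was *STMN2* in 5 and 2, *TAGLN3* in 6 and 7 and *SCG3* in 1 and 1. In the 17 and 21 cells with 2 members, *NEFM* appeared in 3 and 3, while *NEFL*, *INA* and *GAP43* were in 0. In cells with 3 to 4 members *SCG3* was in 81.3% and 84.2%, *NEFM* in 41.3% and 30.3%, *INA* in 29.3% and 22.4% and *NEFL* in 12.0% and 6.58%. A cell with more members has to hold each of them more often, so only the order among them is described. *GAP43* was in 2.67% and 5.26% of the cells with 3 to 4 members and in 71.1% and 66.4% of cells with 5 to 7 members. Most neuron-like cells held *STMN2*, *TAGLN3* and *SCG3*, so finding these beside the filament genes and *GAP43* there is no separate result. Over all kept cells *NEFM* was the sole member in 54.8%, 27.0% and 28.5% of its cells (E16 HS, E19 HS, E19 HSTS). *NEFL* was alone in 54.0%, 34.8% and 41.0% of its cells.

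**Figure D3:**
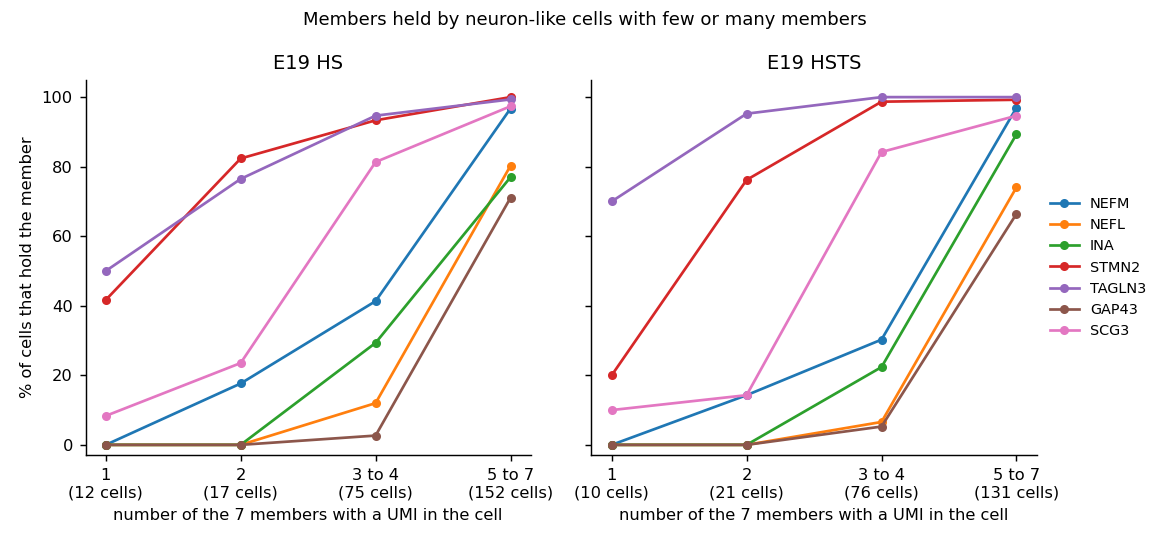
Share of neuron-like cells that hold each member, by the number of the 7 members with a UMI in the cell, for E19 HS (left) and E19 HSTS (right), with cell numbers under each point. *TAGLN3* and *STMN2* lead in cells that hold 1 or 2, *SCG3* reaches 81.3% and 84.2% at 3 to 4, and *NEFL*, *INA* and *GAP43* first appear there, with *GAP43* lowest in both libraries (by 1 cell in E19 HSTS).

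Pairs of members were read next, in the neuron-like cells first. In E19 HS, 110 of 110 neuron-like cells with *GAP43* also held *STMN2* (241 of all 260) and 106 of 110 held *NEFM* (181 of all 260), while 58.6% of those with *NEFM* held *GAP43*. *NEFM* was in 94.7% of neuron-like cells with *NEFL*, and *NEFL* in 68.5% of those with *NEFM*. *NEFL* and *NEFM* are neighbours in the RefSeq gene table of the assembly ARS-UI_Ramb_v3.0, in which 7 of 7 members were matched by symbol. Over all kept cells, 25.5% of *NEFM* cells held *STMN2* in E16 HS, against 59.1% in E19 HS and 53.6% in E19 HSTS. In the reverse direction 9.45%, 14.7% and 14.2% of *STMN2* cells held *NEFM*. *STMN2* was the sole member in 59.2% of its 2276 cells in E19 HS, whereas *INA* was alone in 6.88% of its 276 and *GAP43* in 24.0% of its 167.

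*NEFM* was concentrated in few cells. Only 24 cells of E19 HS and 19 of E19 HSTS held 50% of all *NEFM* UMIs, against 95 cells in E16 HS, and single cells reached 259 and 326 UMIs. *STMN2* was spread wider, with 50% of its UMIs in 276, 229 and 132 cells of E16 HS, E19 HS and E19 HSTS. In neuron-like cells with *NEFM*, the median was 10 UMIs in E19 HS and 9 in E19 HSTS, far below these top cells.

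Neuron-like cells differed by the neuron genes they held. Genes of motor neurons, of which 6 were measured, had a UMI in 38 of 260 cells of E19 HS and 35 of 238 of E19 HSTS. *SLC5A7*, the choline transporter, was in 25 and 13 neuron-like cells. *MNX1*, *ISL2* and *LHX3*, transcription factors of motor neurons, were in 3, 6 and 4 of E19 HS and 13, 8 and 8 of E19 HSTS. The group of E19 HS thus rests mostly on *SLC5A7*. In the 38 and 35 cells *NEFL* was at 1904 and 1435 CPM, against 450.2 and 385.9 in the other neuron-like cells. These are ratios of 4.23 (3.73 to 4.79) and 3.72 (3.24 to 4.26). *INA* had ratios of 3.16 and 2.76 and *NEFM* ratios of 2.75 and 2.39. *TAGLN3* went the other way, with ratios of 0.862 (0.762 to 0.973) and 0.722 (0.638 to 0.815). *SCG3* had ratios of 1.14 and 0.928, both with an interval that holds 1. *GAP43* had ratios of 2.74 and 1.64. *STMN2* was at 1.55 (1.45 to 1.66) in E19 HS and 1.05 (0.978 to 1.12) in E19 HSTS. The 3 filament genes and *GAP43* were thus higher, in both libraries, in cells with a motor neuron gene. In the 20 and 17 neuron-like cells with 1 or more of 6 autonomic neuron genes, *NEFM* had ratios of 2.26 and 3.08, *NEFL* of 1.49 and 3.99 and *INA* of 1.04 and 1.48. *HAND2* of that list was in fewer neuron-like cells (1.92% and 2.10%) than other cells (5.48% and 6.35%). So was *GATA3*, at 1.54% and 0.420% against 2.08% and 2.41%. *TH* was in 0.420% against 3.04% in E19 HSTS, but not rarer in E19 HS (0.385% against 0.0193%). The rest of the list was mostly more frequent in neuron-like cells. A UMI of *HAND2*, *GATA3* or *TH* need not be expression there. These cells share a library and a few rich cells weigh on such sums.

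In neuron-like cells with an interneuron gene the summed levels of *NEFM* and *NEFL* were lower, but not every share of cells. Among the 8 measured genes are *LHX1*, *LHX5* and *PAX2*, transcription factors of spinal interneurons, and 21 neuron-like cells of E19 HS and 28 of E19 HSTS held one. *LHX1*, the most frequent, was in 3.85% and 6.72% of neuron-like cells against 1.87% and 2.55% of all others. *NEFM* was at 657.3 and 1352 CPM there against 4398 and 3671 in the others, ratios of 0.149 (0.118 to 0.187) and 0.368 (0.321 to 0.421). *NEFM* was nonetheless in 76.2% of these cells in E19 HS against 69.0% of the others, and in 57.1% against 65.2% in E19 HSTS. *NEFL* had ratios of 0.110 and 0.368, and its shares were 28.6% against 52.3% in E19 HS and 42.9% on both sides for E19 HSTS. *INA* was lower in E19 HS alone, at 0.517 (0.331 to 0.771), and stood at 1.05 (0.810 to 1.34) in E19 HSTS. *STMN2* was close to the other cells, with ratios of 0.949 and 1.11, and *TAGLN3* was at 1.29 and 1.48. *SCG3* stood at 1.11 and 0.789, and *GAP43* at 0.382 and 1.02. In cells with a UMI of 1 or more of 8 proneural or early neuronal transcription factors (the measured list without *SOX4*, *MYT1* and *ST18*), 114 and 122 in number, *NEFL* had ratios of 0.422 and 0.622 and *INA* of 0.491 and 0.542. *NEFM* had ratios of 0.639 and 0.822, *STMN2* of 0.642 and 0.890 and *GAP43* of 0.487 and 0.830, the value of E19 HSTS with an interval that holds 1. *TAGLN3* stood at 0.790 and 0.954 and *SCG3* at 0.793 and 1.03, so in E19 HS the 7 summed levels were all lower in cells with an early factor. The shares of cells were lower there for *NEFM*, *NEFL*, *INA* and *GAP43* alone. *STMN2* and *TAGLN3* were each in 94.7% against 91.1%, and *SCG3* in 82.5% against 82.2%.

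**Figure D4:**
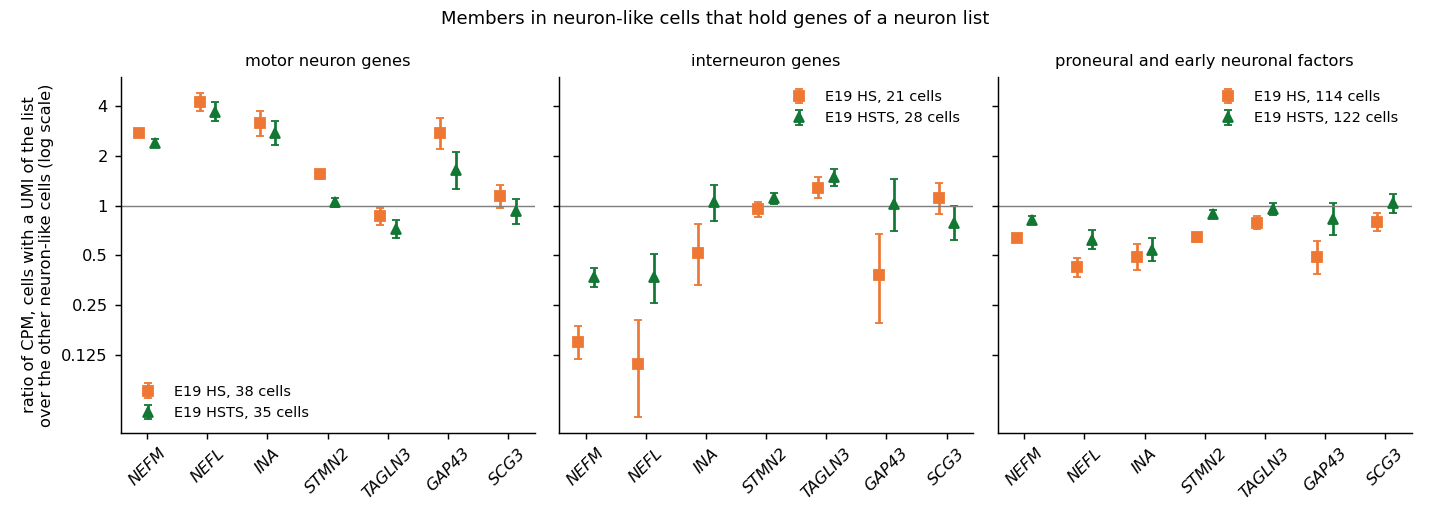
Ratio of CPM between neuron-like cells with a UMI of a gene list and the other neuron-like cells, on a log axis with exact intervals, for motor neuron genes (left), interneuron genes (middle) and proneural and early neuronal transcription factors (right) in E19 HS (squares) and E19 HSTS (triangles). *NEFL* lies at 4.23 and 3.72 with motor neuron genes and at 0.110 and 0.368 with interneuron genes.

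Outside neurons, neural progenitor-like cells held the most *STMN2*. These cells, marked by the transcription factors *SOX2* (in 88.5%, 91.3% and 92.6% of them) and *PAX6*, numbered 767 in E16 HS, 2409 in E19 HS and 1611 in E19 HSTS. *STMN2* was in 82.8%, 60.3% and 64.0% of them, or 65.9%, 41.6% and 45.2% after thinning. They held 53.4%, 40.5% and 30.8% of all *STMN2* UMIs of their library. *TAGLN3* was in 27.4%, 20.7% and 18.4%, *NEFM* in 9.78%, 7.51% and 7.26%, and *SCG3* in 4.69%, 6.89% and 8.63%. *INA* was in 10.6%, 4.86% and 3.91%, and its progenitor-like carriers held 59.5% of all *INA* UMIs in E16 HS but 20.2% and 10.2% at day 19. For *INA* and *NEFM* the order of the days turned after thinning in gated cells, as given below. *GAP43* was close to absent, in 0.391%, 0.291% and 0.0621%. A UMI of a neuron marker was in 9.52%, 8.09% and 9.25% of the progenitor-like cells.

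By a gate on *SOX2* and *PAX6* with no clustering, *STMN2* was in 82.5% of 360 cells of E16 HS without any neuron marker UMI, 61.1% of 857 of E19 HS and 64.8% of 627 of E19 HSTS. *TAGLN3* was in 28.6%, 19.4% and 21.5% of the same cells. These shares lay close to those in the clusters, some above and some below. After thinning, *INA* was in 1.02%, 3.02% and 2.02% of gated cells, with or without a marker, and *NEFM* in 2.54%, 3.56% and 2.89%. For both genes E16 HS was then lowest, whereas without thinning it was highest. *TAGLN3* was in 9.16%, 9.16% and 11.3% after thinning, and *STMN2* in 59.8%, 40.0% and 43.4%. Only 57.9%, 55.0% and 60.5% of neuron-like cells held a neuron marker UMI themselves, so a cell without one may still express a marker.

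*TAGLN3* and *STMN2* were the members found most often in neural crest-like cells, and their intervals overlap in each library. These cells numbered 100, 88 and 74 and were marked by *TFAP2B*, in 74.0%, 61.4% and 64.9%, and by *SOX10*, in 19.0%, 9.09% and 16.2%, both crest transcription factors. *TAGLN3* was in 28.0% (19.5 to 37.9%), 33.0% (23.3 to 43.8%) and 36.5% (25.6 to 48.5%) of them, and *STMN2* in 34.0% (24.8 to 44.2%), 19.3% (11.7 to 29.1%) and 20.3% (11.8 to 31.2%). The summed level of *STMN2* in these cells was 0.338 (0.204 to 0.539) of its day 16 value in E19 HS. The 3 libraries overlap for *TAGLN3*. *NEFM* was in 9%, 12.5% and 5.41%, with a ratio of E19 HS to E16 HS of 3.06 (1.75 to 5.54) that rests on 45 and 19 UMIs, of which 1 cell of E19 HS holds 19. *GAP43* had 0 UMIs in these cells, which allows a share of up to 3.62%, 4.11% and 4.86%. The stricter gate on *SOX10* with *TFAP2B* kept 37, 11 and 21 cells. In E19 HS all 182 UMIs of *NEFM* and all 56 of *NEFL* within that gate belonged to 1 cell, and 0 of the 10 cells without a neuron marker UMI held either gene, which allows up to 30.8%. In the other libraries cells without a neuron marker UMI did hold them, *NEFM* in 1 of 32 and *NEFL* in 1 of 32 in E16 HS, and *NEFM* in 3 of 20 and *NEFL* in 2 of 20 in E19 HSTS. *TAGLN3* was in 15, 5 and 10 of the gated cells and *STMN2* in 7, 4 and 3, but after thinning E19 HSTS had *TAGLN3* in 0 of 20 (upper limit 16.8%) and *STMN2* in 1 of 20.

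Heart cells carried the set rarely. Cardiomyocyte-like cells numbered 28, 112 and 83, and *TNNT2*, cardiac troponin T, was in 89.3%, 98.2% and 100% of them. *NEFM* was in 0 of 28 (upper limit 12.3%), 1 of 112 (0.893%) and 0 of 83 (upper limit 4.35%), beside 0.748%, 0.844% and 0.834% of blood progenitor-like cells. The single *NEFM* cell of E19 HS held 5 UMIs. *STMN2* was in 3.57%, 3.57% and 4.82% and *TAGLN3* in 7.14%, 3.57% and 7.23%, with intervals down to 0.0904% and 0.877% in E16 HS. *SCG3* was in 1 cell of E19 HS, with 9 UMIs, and in none of the other libraries, which allows up to 12.3% in E16 HS and 4.35% in E19 HSTS. *TAGLN3* in E19 HSTS (2.70 to 15.1%) lay above its 1.71% in blood progenitor-like cells (1.25 to 2.28%), and so did *INA*, in 3 of 83 cells (3.61%, 0.752 to 10.2%) against 0.190% (0.0616 to 0.442%). After thinning both stood at 2 of 76, or 2.63% (0.320 to 9.18%). The thinned share in blood progenitor-like cells, 0.503% for *TAGLN3* and 0.0773% for *INA*, is inside that interval for *TAGLN3* alone. A UMI of a neuron marker was in 17.9%, 4.46% and 9.64% of the cardiomyocyte-like cells against 1.05%, 0.985% and 0.758% of the blood progenitor-like cells, and the part of such RNA in these values was not tested. For *NEFM*, *NEFL*, *STMN2* and *SCG3* a share above that of blood progenitor-like cells was not detectable at this number of cells.

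**Figure D5:**
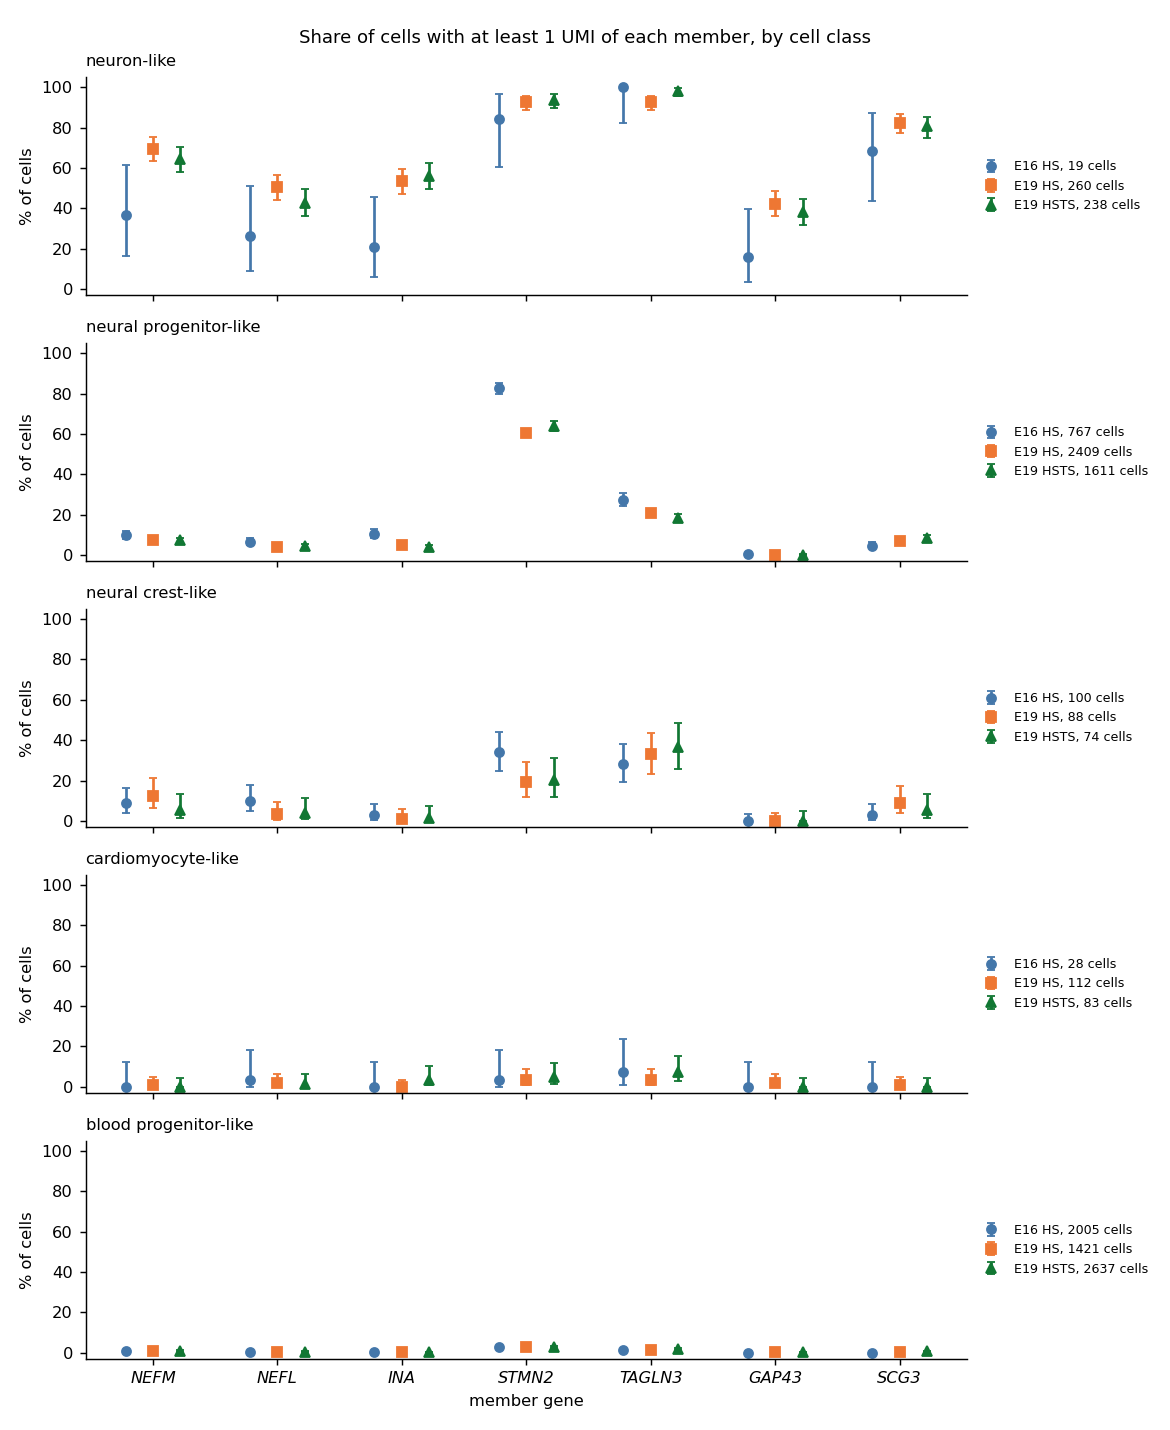
Share of cells with at least 1 UMI of each member in 5 cell classes, in percent with exact binomial intervals, for E16 HS (circles), E19 HS (squares) and E19 HSTS (triangles); cell numbers stand beside each panel. All 7 members are common in neuron-like cells, *STMN2* and *TAGLN3* stand out in neural progenitor-like and neural crest-like cells, and no member passes 7.23% in cardiomyocyte-like cells.

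Some carriers lay outside the nervous system. In somite-like cells, 2729, 3629 and 2913 in number, *STMN2* was in 10.2%, 8.49% and 8.86% and *TAGLN3* in 8.21%, 5.43% and 7.42%, against 2.69%, 2.74% and 2.69% and 1.15%, 1.41% and 1.71% of blood progenitor-like cells. A cluster of E16 HS led by *UPK3A*, a plaque protein of urothelium, and *KRT7*, a keratin, held *NEFM* in 109 of 329 cells (33.1%, 28.1 to 38.5%) and 22.4% of all *NEFM* UMIs of that library, more than its 19 neuron-like cells with 19.8%. *STMN2* was in only 2.74% of these cells, *TAGLN3* in 0.912%, and *INA* and *SCG3* were in none, which allows up to 1.11%. After thinning, *NEFM* was in 11.2% of them. At day 19 the cluster had 7 and 2 cells. Of the gut list, which matched it best, *KRT7* alone was among its 10 leading genes, beside *UPK3A* and *UPK2* of urothelium, so it is left unnamed. A second epithelial cluster, led by *CXCL14*, a chemokine, and *DLX5*, a homeobox gene, held *NEFL* in 16.1%, 12.4% and 15.8% of its 584, 525 and 400 cells and *NEFM* in 13%, 10.3% and 13.2%. In blood progenitor-like cells *NEFL* was in 0.399%, 0.422% and 0.455%. Its 10 leading genes include *CLDN7* and *CDH1* of the gut list, which many epithelia express, and *TFAP2A*, a factor of surface ectoderm, so it too is left unnamed. In E16 HS it held 59 of the 110 UMIs of *GAP43*, in 5.99% of its cells, and at day 19 *GAP43* was in 0.762% and 1.00%.

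For other classes 1 member each is described, although a few of their cells held at least 3 members. *GAP43* was in 19 of 286 haematoendothelial-like cells of E19 HS (6.64%) and 13 of 169 of E19 HSTS (7.69%), and in 0 of 52 of E16 HS, which allows up to 6.85%, against 0.211%, 0.152% and 0.0499% of blood progenitor-like cells in the same order. *STMN2* was in 22.1%, 22.3% and 20.0% of an unnamed cluster of 1132, 112 and 35 cells led by *SLC2A5*, *FGF17* and *CDX2*, the last a transcription factor of the caudal embryo. *TAGLN3* was in 9.80%, 10.7% and 6.94% of 1612, 178 and 144 mesenchyme-like cells, against 1.15%, 1.41% and 1.71% of blood progenitor-like cells.

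Of the further neuronal intermediate filament genes, *NEFH* is not among the listed symbols, and *PRPH*, peripherin, had 8, 8 and 4 UMIs, too few for a ratio. Intermediate filament genes of other cells had a median ratio of 0.881, near the 0.854 of all genes. Of 8 with enough UMIs, 0 were at least 2-fold higher in E19 HS than in E16 HS and 3 at least 2-fold lower. *KRT8* and *KRT18*, keratins of simple epithelia, had ratios of 0.229 and 0.294, and *LMNA*, a nuclear lamin, had 0.482. *VIM*, vimentin, had 1.44, *NES*, nestin, had 1.33 and *SYNM*, synemin, had 1.24, each with an interval above 1. Of 15 neuronal RNA-binding and cytoskeletal genes with enough UMIs, 6 were at least 2-fold higher and 0 lower, with a median ratio of 1.40. *DCX* had the greatest ratio there, 17.9 (7.30 to 56.7), before *ELAVL3*, a neuronal RNA-binding protein, at 7.18. Of 11 secretory and synaptic genes 5 were at least 2-fold higher, led by *SYT4*, a synaptotagmin of secretory vesicles, at 12.8 (6.43 to 28.8), and their median was 1.25. Of the proneural and early neuronal factors, *NEUROD4* had a ratio of 19.6 (11.2 to 37.5) and *SOX4* one of 1.10. No gene with enough UMIs in the interneuron, autonomic and sensory lists was at least 2-fold higher. Of 2 interneuron genes with enough UMIs, *PAX2* had 1.32 and *LHX1* 0.785. Of the autonomic list, 3 of 3 such genes were at least 2-fold lower, *HAND2* at 0.352, *GATA3* at 0.440 and *TH* at 0.0239 (0.00488 to 0.0712), but these sums are mostly of other cells, as *HAND2* was in 14.4% of the cells of E16 HS that were not neuron-like. *ISL1*, of the sensory list, had 0.598. These lists were read against the 6.38% of all genes that were at least 2-fold higher.

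Across 38 values, each a cell class in 1 library, the 10 genes whose log2(CPM + 1) was most like that of the summed members were *TUBB2B*, *BRSK2*, *AJAP1*, *DRAXIN*, *SRRM4*, *TUBA1A*, *CRABP1*, *PCBP4*, *LMO1* and *POU3F2*. Pearson's r ran from 0.876 for *TUBB2B*, a beta-tubulin, to 0.817 for *POU3F2*, a POU transcription factor. Without the neuron-like classes (36 values) it ran from 0.620 for *SRRM4*, a neuronal splicing regulator, to 0.797 for *AJAP1*. Classes of 1 library share its depth and free RNA, so these values are a description. Among the members, *NEFL* with *NEFM* had the highest r of the 21 pairs, 0.894, and 0.720 without the neuron-like classes. *GAP43* with *STMN2* had the lowest, 0.521, and -0.0916 without them.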

How the data were processed

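The authors deposited 1 filtered matrix of raw UMI counts per library, made with Cell Ranger 6.1.2 per the submitters' processing notes, which also name R 4.1.2 and Seurat 4.1.1. The study's methods name the sheep reference as Ovis_aries_genome_v1.0. Depth was 128271878, 94754580 and 107817481 UMIs in 12645, 12064 and 11114 cells of E16 HS, E19 HS and E19 HSTS. The members and gene lists were chosen with earlier results of these data known.

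From these counts, cells entered that had between 200 and 6000 genes, between 1000 and 30000 UMIs and no more than 10% of UMIs from mitochondrial genes. They were clustered in Seurat 5.3.0 (2000 variable genes, from which the 7 members were then removed, 25 components, resolution 0.25) and named from marker lists. UMIs were summed per library and divided by the kept total (CPM). Ratios carry exact conditional binomial intervals, shares exact Clopper-Pearson intervals and levels exact Poisson intervals, all at 95% and from Python 3.11.15 with scipy 1.17.1. Thinning drew 3000 UMIs per cell. Fold counts used genes with at least 50 UMIs over both libraries, and the code was tested on simulated data. Scrublet in scanpy 1.11.5 marked 198, 0 and 193 cells, and doublets were left in. TMM came from edgeR 4.0.16. Alternatives were all deposited cells, a stricter filter (500 genes, 5% mitochondrial), no blood or neuron-like cells, the highest 8% of doublet scores left out, thinning, at least 2 UMIs, resolution 1.0, gates on marker genes, no minimum count and TMM. Named genes were the members, *NEFH*, *PRPH*, the greatest ratios of each list and the 10 most alike genes. Others, such as *KRT8*, were named after their values were seen, and the 8 proneural genes used within neuron-like cells are a trimmed list. Some genes of the lists are not reported here.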

Additional observations from a re-analysis of the deposited data

Results flagged for a closer look

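*STMN2* and *INA* differed between days in opposite directions in 2 cell classes of HS. The ratio of E19 HS to E16 HS was 1.30 for *STMN2* in neuron-like cells and 0.496 in neural progenitor-like cells. For *INA* it was 2.84 in neuron-like cells and 0.534 in neural progenitor-like cells. In cells gated on *SOX2* and *PAX6*, *INA* was at 10.0 CPM in E16 HS and 10.6 in E19 HS. Its lower summed level at day 19 was thus not seen in the gate, while *STMN2* was lower there as well. *INA* was in 8.33% of the gated cells without a neuron marker UMI in E16 HS and 5.13% in E19 HS. After thinning it was in 1.02% and 3.02% of all gated cells, so its direction there depends on the measure. The difference between the classes was not tested, since there is 1 library per day, and the neuron-like values of day 16 come from 19 cells.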

How the results depend on the processing

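Across the alternatives, 119 of the main values moved by less than their interval, 67 moved by more and 9 changed direction. With 1 library per condition no test could change sides. Without neuron-like cells, chosen after the data were seen, the ratios of E19 HS to E16 HS were 1.10 for *NEFM*, 0.876 for *NEFL*, 1.35 for *STMN2*, 1.44 for *INA*, 1.36 for *TAGLN3*, 3.69 for *SCG3* and 0.981 for *GAP43*. Without blood progenitor-like cells they were 8.36 for *NEFM*, 2.47 for *STMN2* and 3.55 for *TAGLN3*. TMM scaling gave 8.97, 3.64, 2.65 and 3.81 for *NEFM*, *NEFL*, *STMN2* and *TAGLN3*, and all deposited cells gave 6.49 for *NEFM*. The 7 members were at least 2-fold higher in each of these settings but the first.

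The ratios of E19 HSTS to E19 HS turned upward without blood progenitor-like cells, to 1.06 for *NEFM*, 1.10 for *NEFL*, 1.19 for *STMN2*, 1.23 for *INA*, 1.21 for *TAGLN3*, 1.05 for *SCG3* and 1.00 for *GAP43*. Without neuron-like cells they were 0.861 for *NEFM*, 1.05 for *NEFL*, 0.742 for *STMN2*, 0.629 for *INA*, 0.807 for *TAGLN3* and 0.514 for *GAP43*. Without the highest doublet scores they were 0.750 for *NEFM*, 0.780 for *NEFL* and 0.881 for *TAGLN3*. *NEFM* was at 0.888 in all deposited cells and 0.851 with TMM, and *STMN2* at 0.898 under the stricter filter and 0.960 with TMM. The cause of these shifts was not tested.

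The share of cells with at least 3 members in E16 HS, E19 HS and E19 HSTS was 1.73%, 4.56% and 4.77% without blood progenitor-like cells, 0.300%, 2.49% and 2.30% after thinning, and 0.212%, 2.05% and 2.03% with at least 2 UMIs. *STMN2* was in 19.0%, 75.7% and 71.1% of *NEFM* cells with at least 2 UMIs, in 100%, 96.1% and 96.7% within neuron-like cells, and after thinning in 21.6% in E16 HS and 61.0% in E19 HSTS. *NEFM* was in 3.03%, 12.0% and 12.5% of *STMN2* cells with at least 2 UMIs, in 43.8%, 72.2% and 66.4% within neuron-like cells, and in 4.56% after thinning in E16 HS. Neuron-like cells held 8.02%, 66.6% and 70.0% of the members' UMIs without the highest doublet scores, while cells gated on 2 or more neuron markers held 4.34%, 27.8% and 41.0%. After thinning, *STMN2* was in 65.9%, 41.6% and 45.2% of neural progenitor-like cells and *TAGLN3* in 13.7%, 18.2% and 19.4% of neural crest-like cells. *TAGLN3* was in 38.5% of the latter at resolution 1.0 in E16 HS, and in 40.5%, 45.5% and 47.6% of gated cells. In cardiomyocyte-like cells *STMN2* was in 0% after thinning in E16 HS, and *NEFM* in 0% without the highest doublet scores in E19 HS.

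With no minimum count, 2749 genes were at least 2-fold higher in E19 HS than in E16 HS and 2811 lower, against 802 and 876, and between the breeds 1745 and 2050, against 190 and 284. TMM gave 1057 higher and 558 lower between days. No paired analysis was possible because there is 1 library per condition. The number of cells limits small classes: 0 of 83 cells allows a share of up to 4.35%.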
